A study of Homo sapiens with 4 samples.

Results

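The Notch genes examined here were 10 genes of one signaling pathway, namely the receptors NOTCH1, NOTCH2 and NOTCH3, the ligands JAG1, JAG2 and DLL1, and the target genes HES1, HEY1, HEY2 and NRARP. They were chosen by gene symbol, with earlier results of these data known. All 10 were found among the 57879 genes listed, with 37 of the 195700 transcripts. RNAseq was performed on T24 cells, an established human bladder carcinoma line, that carried the empty lentiviral vector (EV, labelled control) or a vector for the FLAG-tagged catalytic domain of TET1 (TET1-CD). Each group had 2 libraries. Per the methods of the study, cells were selected with puromycin after infection, and both groups share this treatment and the vector. TET1 oxidizes 5-methylcytosine in DNA, and the comparison asks which transcripts differ once its catalytic domain is expressed. The mutant without enzymatic activity was not analysed here, so a difference between TET1-CD and EV is not tied to the activity of the enzyme. Each library was made from a whole population of cells, in which fewer expressing cells and less RNA per cell cannot be told apart.

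Notch receptors are membrane proteins that are bound by ligands of the Jagged and Delta-like families on neighboring cells. Binding leads to cleavage by an ADAM protease and then by γ-secretase, which frees the intracellular domain of the receptor. This domain enters the nucleus, joins the DNA-binding protein RBPJ and a Mastermind coactivator, and switches on genes such as HES1, HEY1 and HEY2, which encode transcriptional repressors, and NRARP, which encodes a feedback inhibitor of the pathway. In the bladder, Notch signaling is known for its part in urothelial differentiation, and it has been described as growth-restraining in urothelial tumors.

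The libraries held 17442143 to 20295266 estimated fragments. TET1 was at 111 and 83 counts with EV and at 2939 and 3310 with TET1-CD, in the direction the labels give, although counts of the transgene and of the endogenous gene are not separated. The epithelial keratins KRT7, KRT8 and KRT18 had 10759 to 22638 counts per library, whereas the adhesion gene CDH1 had 0 to 2 counts. Among 6 epithelial markers, 5 were tested. KRT7 (26.8% higher), KRT18 (13.2%) and KRT19 (101.0%) were called higher in TET1-CD cells (edgeR, adjusted p = 0.00175, 0.0414 and 0.00273). KRT8 (5.13% lower) and EPCAM (45.5% higher) were not called (edgeR, adjusted p = 0.338 and 0.107). Of 3 mesenchymal markers, VIM, which encodes vimentin, was 23.6% lower (edgeR, adjusted p = 0.00232), while CDH2 and ZEB1 did not pass, and the summed FPKM of the 3 was 1752 and 1889 with EV and 1400 and 1435 with TET1-CD. Of 12 urothelial markers, KRT5 and KRT20 were at 0 in all 4 libraries and 5 had at least 10 counts in each, and their summed FPKM was 26.3 and 26.4 with EV and 29.1 and 30.2 with TET1-CD. GATA3 and FOXA1 were called higher and ELF3 lower among them. Of 11 markers of immune, endothelial, stromal and other cells, ALB was at 0 and only COL1A1 had at least 10 counts in each library. COL1A1, a collagen gene of stromal cells, was at 88 and 70 counts with EV and at 266 and 314 with TET1-CD. The summed FPKM of the 11 markers was 1.79 and 1.59 with EV and 4.97 and 3.50 with TET1-CD, and without COL1A1 it was 0.37 and 0.46 with EV and 0.79 and 0.34 with TET1-CD. The part of these markers in the differences below was not tested.

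The stretch just upstream of a gene's start is shown for the 5 Notch genes whose transcripts differed between EV and TET1-CD cells, since TET1 acts on methylated cytosines, which lie mostly in CpG sites, and RBPJ binds the motif searched for here. The sequences are the 250 bases before the start of each gene in RefSeq on GRCh38.p14, read 5′ to 3′ on the strand of the gene. They lie at chr3:194135898-194136147 on the plus strand for HES1, and on the minus strand at chr20:10674000-10674249 for JAG1, chr9:137302272-137302521 for NRARP, chr9:136546049-136546298 for NOTCH1 and chr1:120069663-120069912 for NOTCH2. Capitals mark TGGGAA, the core of the RBPJ motif, in HES1, and CG in the others.
HES1: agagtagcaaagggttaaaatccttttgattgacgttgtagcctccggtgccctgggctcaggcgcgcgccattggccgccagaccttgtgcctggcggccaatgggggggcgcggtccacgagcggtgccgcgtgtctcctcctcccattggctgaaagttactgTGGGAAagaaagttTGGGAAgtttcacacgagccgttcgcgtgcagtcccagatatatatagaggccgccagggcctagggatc
JAG1: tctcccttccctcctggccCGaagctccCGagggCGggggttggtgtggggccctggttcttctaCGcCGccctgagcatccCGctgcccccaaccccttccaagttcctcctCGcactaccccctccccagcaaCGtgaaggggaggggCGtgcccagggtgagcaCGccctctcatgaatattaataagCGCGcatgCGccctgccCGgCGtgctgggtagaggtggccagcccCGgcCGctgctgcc
NRARP: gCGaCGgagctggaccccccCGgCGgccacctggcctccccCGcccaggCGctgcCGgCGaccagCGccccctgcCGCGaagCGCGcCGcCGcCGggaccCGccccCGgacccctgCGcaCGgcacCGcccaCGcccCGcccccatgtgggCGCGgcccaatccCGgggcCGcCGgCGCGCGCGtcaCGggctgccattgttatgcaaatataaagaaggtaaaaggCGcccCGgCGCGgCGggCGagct
NOTCH1: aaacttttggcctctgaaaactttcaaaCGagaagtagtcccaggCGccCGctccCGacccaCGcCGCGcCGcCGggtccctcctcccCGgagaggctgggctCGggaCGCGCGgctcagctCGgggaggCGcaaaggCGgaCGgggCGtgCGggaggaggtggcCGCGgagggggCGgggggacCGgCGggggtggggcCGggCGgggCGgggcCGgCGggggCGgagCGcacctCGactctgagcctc
NOTCH2: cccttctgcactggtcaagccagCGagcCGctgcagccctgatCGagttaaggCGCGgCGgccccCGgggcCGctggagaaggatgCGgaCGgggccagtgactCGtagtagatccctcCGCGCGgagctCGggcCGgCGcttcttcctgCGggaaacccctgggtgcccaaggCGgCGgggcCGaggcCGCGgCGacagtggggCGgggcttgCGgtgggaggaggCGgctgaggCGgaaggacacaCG

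Of the 10 Notch genes, 8 were searched. Genes on chromosome 8 were left out, so HEY1 was not searched, and no upstream sequence was matched for DLL1. TGGGAA was searched on both strands, and in HES1 it occurred at -84 to -79 and at -70 to -65 from the gene's start, both on the strand of the gene. HEY2 had a match on the other strand at -213 to -208, and the other 6 had none in this window. Among 35116 upstream sequences of the same length, 20.8% held a match and 2.90% held 2 or more. CACNAG, the N-box bound by HES repressors, where N is any base, occurred 3 times in HES1 and once in NOTCH3, where 32% of the 35116 upstream sequences held a match. The windows of the Notch genes held between 17 CpG sites (JAG1) and 39 (NRARP), where the median over all 35116 sequences was 11 and the upper quartile 23. JAG1 and HES1, with 17 and 18 CpG sites, held fewer than NOTCH1 (33), NOTCH2 (29) and NRARP (39). The sequences are a description of the reference, and neither methylation nor binding was measured in these data.

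**Figure D1:**
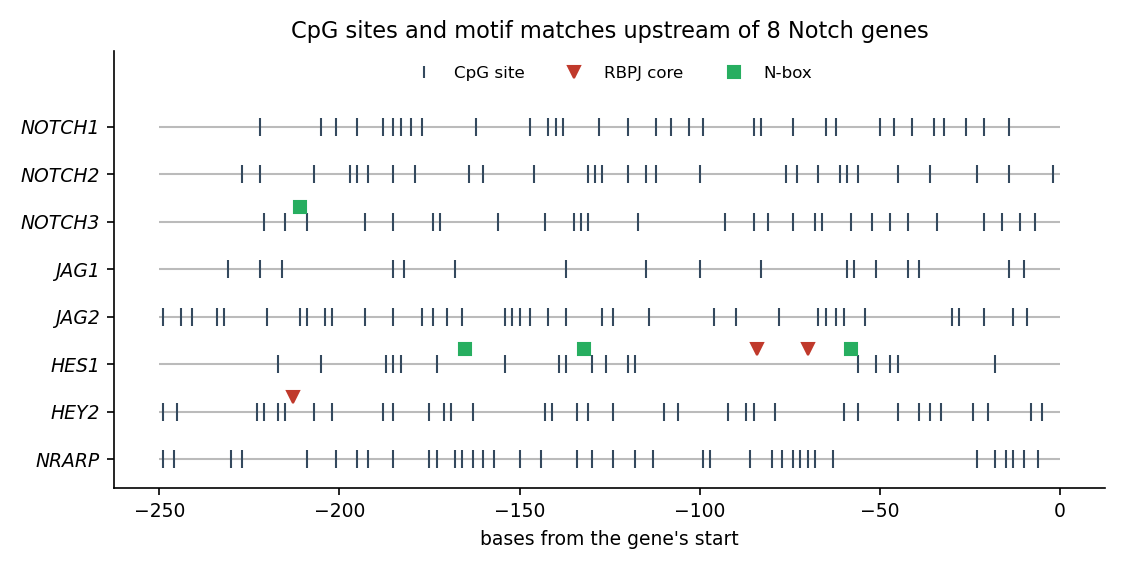
The 250 bases before the start of 8 Notch genes (x axis: bases from the gene's start; 1 line per gene), with CpG sites as vertical ticks, RBPJ core matches (TGGGAA) as triangles and N-box matches (CACNAG) as squares. HES1 is the only one of these 8 with 2 RBPJ core matches, and NRARP has the most CpG sites (39).

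Compared per transcript length, the Notch genes covered a wide range. FPKM values, which are scaled to transcript length and library size, were added up over each gene's transcripts. NOTCH2 was the leading member with an FPKM of 35.6 and 31.8 with EV and 28.7 and 28.7 with TET1-CD, followed by NOTCH1 with 10.8 and 10.1 with EV and 9.22 and 8.72 with TET1-CD. HES1 (4.59 to 7.30 over the 4 libraries) and JAG1 (4.35 to 6.45) came next, and their ranges overlapped. HEY1 had an FPKM of 1.03 to 1.58, and NRARP (0.26 to 0.96) and JAG2 (0.24 to 0.45) overlapped below it. DLL1 had 0.04 to 0.21, HEY2 0.02 to 0.12 and NOTCH3 0.01 to 0.03, and in this order each overlapped its neighbor. T24 cells thus carried transcripts mainly of NOTCH2, NOTCH1 and JAG1 among the receptors and ligands examined. NOTCH2 made up 75.6% to 76.7% of the summed FPKM of the 3 receptors in every library, and JAG1 90.7% to 94.0% of that of the 3 ligands. The summed FPKM of the ligands was 0.103 and 0.111 of that of the receptors with EV, and 0.184 and 0.190 with TET1-CD, so that the groups did not overlap.

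**Figure D2:**
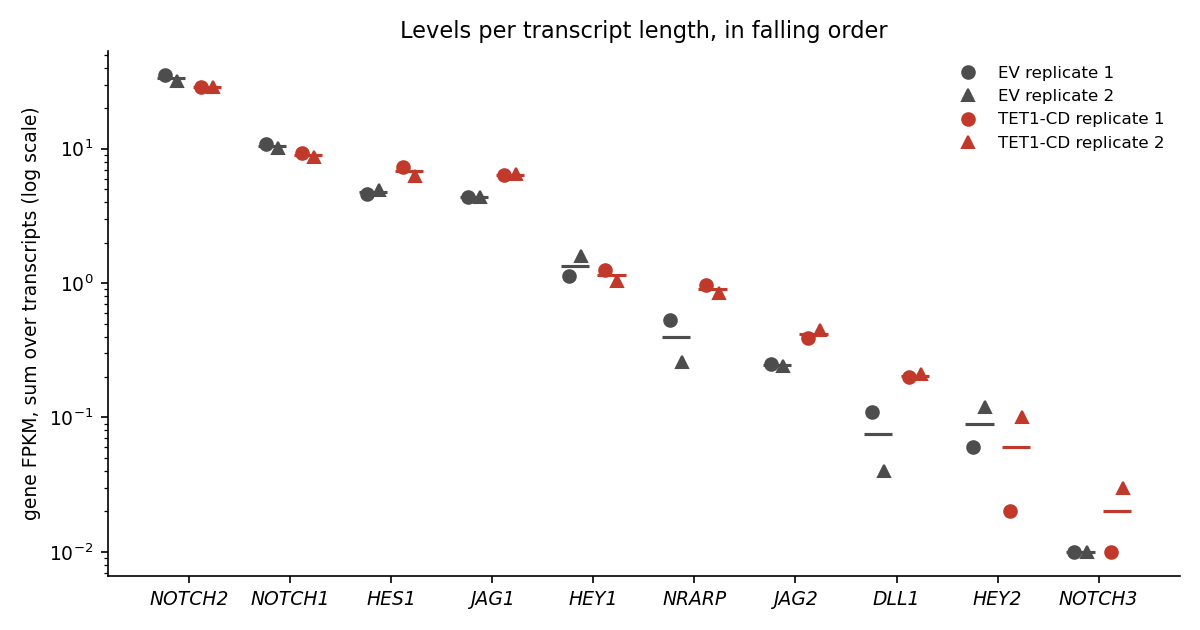
Gene FPKM on a log scale (y axis) of the 10 Notch genes in falling order of their mean (x axis), 1 point per library, with a bar at the mean of each group (n = 2). NOTCH2 lies highest at 28.7 to 35.6 and NOTCH3 lowest at 0.01 to 0.03.

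In TET1-CD cells, the ligand JAG1 and the target genes HES1 and NRARP were higher, and the receptors NOTCH1 and NOTCH2 were lower. The test was the quasi-likelihood F test of edgeR, run across 14573 genes, and a gene passed at an adjusted p under 0.05. Of the 8 Notch genes with enough counts to be tested, 3 were called higher and 2 lower. Because the genes were chosen with earlier results of these data known, shares of all genes are given for scale and not as a test. Among all genes tested, 19.7% passed in either direction, 10.0% as higher and 9.61% as lower. NRARP alone also reached a fold change of 2, which together with the adjusted p was met by 3.77% of all genes tested. As a description, the 8 genes had a median log2 fold change of 0.45, beside 0.001 over all genes tested. The libraries of EV and TET1-CD did not overlap for 6 of the 8, with 4 higher and 2 lower in TET1-CD cells. This was the case for 61.0% of all genes tested, 30.8% as higher and 30.2% as lower. The median and the 4 higher both include DLL1, which entered the test only because of its counts in TET1-CD cells. Neither value was computed without DLL1. NOTCH3 and HEY2 were not tested. These p-values rest on 2 libraries per group, with a spread that edgeR estimates partly from the other genes tested. Nothing in the labels states that the libraries came from separate cultures.

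**Figure D3:**
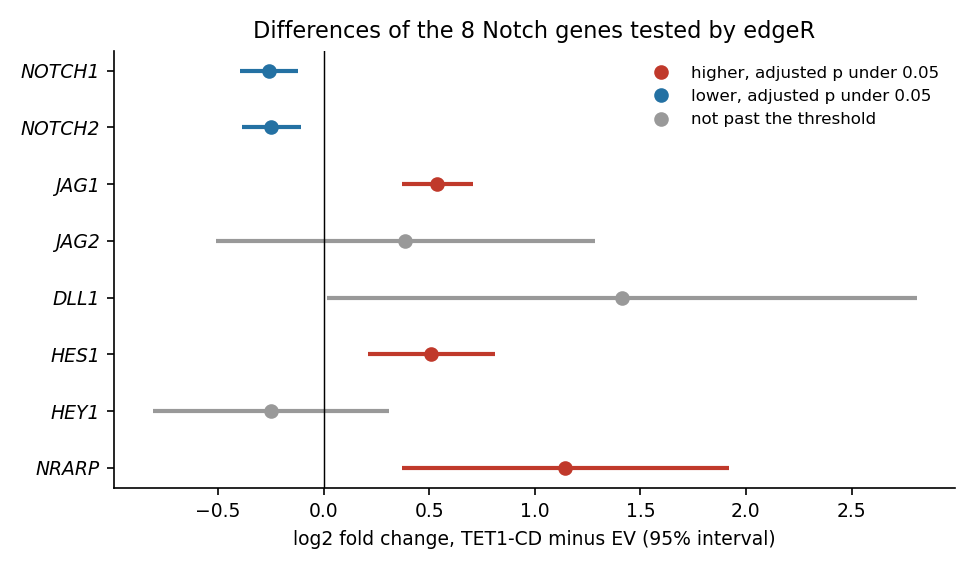
Log2 fold change of TET1-CD against EV (x axis) for the 8 Notch genes tested by edgeR, with points for the estimate and lines for its 95% interval. JAG1, HES1 and NRARP lie above 0 and NOTCH1 and NOTCH2 below it, while JAG2, DLL1 and HEY1 did not pass the threshold.

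NOTCH2 (ENSG00000134250), which is found at 120454176 to 120612240 of chromosome 1 (GRCh37, the build of all gene positions below, minus strand), had 7485 and 6687 normalized counts with EV and 5932 and 6008 with TET1-CD. Normalized counts are counts scaled by TMM to the mean library size. Both TET1-CD libraries lay below both EV libraries, and the EV libraries were farther apart than the TET1-CD libraries. The means were 7086 ± 564.5 in EV and 5970 ± 53.8 in TET1-CD cells (SD, n = 2), for a log2 fold change of -0.25 (standard error 0.06, edgeR, adjusted p = 0.0205), which is 15.8% lower. NOTCH1 (ENSG00000148400, chromosome 9, 139388896 to 139440314, minus strand) had 1873 and 1735 normalized counts with EV and 1509 and 1508 with TET1-CD. Its log2 fold change was -0.26 (standard error 0.06, edgeR, adjusted p = 0.0155), which is 16.4% lower, again without overlap of the libraries. The receptors therefore moved by nearly the same proportion, and the ratio of NOTCH2 to NOTCH1 FPKM was 3.30 and 3.14 with EV and 3.11 and 3.29 with TET1-CD. Neither call held when 1 TET1-CD library was left out. Without TET1-CD replicate 1 the log2 fold change was -0.24 for NOTCH2 (edgeR, adjusted p = 0.188) and -0.26 for NOTCH1 (adjusted p = 0.127), and without TET1-CD replicate 2 it was -0.26 for both (edgeR, adjusted p = 0.140 for NOTCH2 and 0.138 for NOTCH1).

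NOTCH3 (ENSG00000074181, chromosome 19, 15270444 to 15311792) was near the limit of detection, with 2 and 2 counts with EV and 1 and 4 with TET1-CD. A count of 3 in a library was taken as the limit below which a gene could be absent or merely missed. The ratio of its summed counts was 1.27, with a 95% interval from 0.27 to 6.42 (exact binomial, counting error only), so a difference was not detectable at this depth. NOTCH4, the remaining receptor of the family, also stayed under the filter, with 7 and 5 counts with EV and 6 and 13 with TET1-CD. NOTCH2NL, on chromosome 1 from 145209119 to 145291972, is a partial copy of NOTCH2, so fragments of the shared exons may be divided between them. It had 795 and 711 normalized counts with EV and 679 and 623 with TET1-CD, lower in both TET1-CD libraries than in both EV libraries. Its log2 fold change was -0.21 (standard error 0.08, edgeR, adjusted p = 0.108), with a 95% interval from -0.40 to -0.03. How fragments were divided between NOTCH2 and its copy was not tested.

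JAG1 (ENSG00000101384) encodes the Jagged ligand and lies on chromosome 20 from 10618332 to 10654694 on the minus strand. It had 494 and 490 normalized counts with EV and 711 and 718 with TET1-CD, so that the libraries within each group nearly coincided and the groups were clearly apart. The means were 491.8 ± 2.67 and 714.5 ± 5.13 (SD, n = 2), a log2 fold change of 0.54 (standard error 0.08, edgeR, adjusted p = 0.00118), or 1.45-fold. Of the 5 Notch genes that passed, JAG1 alone kept its call throughout, since the adjusted p stayed under 0.05 in each alternative with a test, with log2 fold changes between 0.53 and 0.55, although a fold change of 2 was not reached. All counts of JAG1 fell on ENST00000254958, a coding transcript of 26 exons. A further identifier with the symbol JAG1, ENSG00000270408, lies inside the gene and was listed at 0 in all 4 libraries.

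JAG2 (ENSG00000184916, chromosome 14, 105607318 to 105635161) was low, with 21 and 14 counts with EV and 27 and 18 with TET1-CD, and the groups overlapped. Its log2 fold change was 0.39 (95% interval -0.51 to 1.28, edgeR, adjusted p = 0.550), which leaves room for a rise as large as that of JAG1 and for a fall. In summed FPKM the groups were apart, at 0.25 and 0.24 with EV and 0.39 and 0.45 with TET1-CD, and FPKM gives more weight to short transcripts than counts do. The counts were divided over coding and retained-intron transcripts. ENST00000546616, with a retained intron, took 26.9% and 44.2% of them with EV and 24.6% and 55.7% with TET1-CD. DLL1 (ENSG00000198719, chromosome 6, 170591294 to 170599561), a Delta-like ligand, had 7 and 2 counts with EV and 11 and 13 with TET1-CD. The groups did not overlap, with a log2 fold change of 1.41 (95% interval 0.01 to 2.81, edgeR, adjusted p = 0.146). It was 2.41 without EV replicate 1 and 0.89 without EV replicate 2 (both edgeR). The log2 ratio of mean FPKM, with a pseudocount of 0.1 added to each mean, was 0.80. The means were 0.075 with EV and 0.205 with TET1-CD, so the pseudocount exceeded the EV mean. Of the other Delta-like genes, DLL4 had 6 and 0 counts with EV and 10 and 9 with TET1-CD and was not tested, and DLL3 was listed at 0 throughout.

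**Figure D4:**
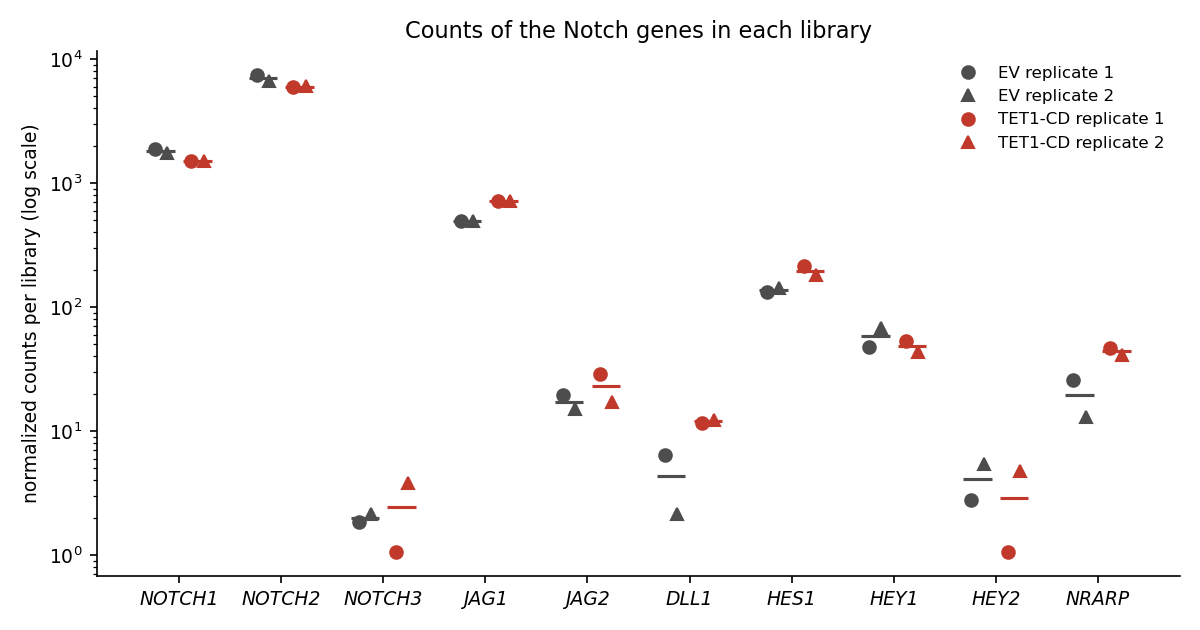
Normalized counts on a log scale (y axis) of the 10 Notch genes (x axis), 1 point per library, with a bar at the mean of each group (n = 2). The TET1-CD libraries lie below the EV libraries for NOTCH1 and NOTCH2 and above them for JAG1, DLL1, HES1 and NRARP.

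Among the target genes, HES1 (ENSG00000114315, chromosome 3, 193853934 to 193856521, plus strand), which encodes the best-known Notch-induced repressor and has the 2 RBPJ cores shown above, had 133 and 144 normalized counts in EV. In TET1-CD cells it had 213 and 181, and the groups did not overlap. The log2 fold change was 0.51 (standard error 0.14, edgeR, adjusted p = 0.0262), or 1.42-fold. NRARP (ENSG00000198435, chromosome 9, 140194083 to 140196703, minus strand), whose protein binds the Notch transcription complex and limits it, had 25.8 and 13.0 normalized counts with EV and 46.8 and 41.0 with TET1-CD. The 2 EV libraries of NRARP differed from each other by more than the TET1-CD libraries did. The log2 fold change was 1.14 (standard error 0.35, edgeR, adjusted p = 0.0444), or 2.21-fold, the largest among the Notch genes that passed. Both calls were lost with DESeq2 (adjusted p = 0.137 for HES1 and 0.150 for NRARP), the tool named in the methods of the study. For HES1 the call was also lost without EV replicate 1 (log2 fold change 0.45, edgeR, adjusted p = 0.0524) or TET1-CD replicate 1 (0.39, adjusted p = 0.238). For NRARP it was lost without EV replicate 2 (0.76, edgeR, adjusted p = 0.126), TET1-CD replicate 1 (1.05, adjusted p = 0.200) or TET1-CD replicate 2 (1.24, adjusted p = 0.106), and without EV replicate 1 the value was 1.74.

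The HEY genes encode repressors related to HES1, and neither of them was called. HEY1 (ENSG00000164683, chromosome 8, 80676245 to 80680098) had 48.0 and 68.0 normalized counts with EV and 53.2 and 43.8 with TET1-CD, and the groups overlapped. Its log2 fold change was -0.25 (95% interval -0.81 to 0.31, edgeR, adjusted p = 0.534). The difference between HEY1 and HES1 was not tested. HEY2 (ENSG00000135547, chromosome 6, 126068810 to 126082415) had 3 and 5 counts with EV and 1 and 5 with TET1-CD. The ratio of its sums was 0.76 (95% interval 0.22 to 2.51, exact binomial, counting error only), so a difference was not detectable at this depth.

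Most Notch genes rested on a single transcript. ENST00000277541 held 99.4% to 99.9% of the counts of NOTCH1 in each library, ENST00000256646 held 98.5% to 99.2% of those of NOTCH2, and ENST00000232424 held 95.9% to 98.6% of those of HES1. NRARP and DLL1 are listed with 1 transcript each. For these genes, a difference in the sum over transcripts is therefore a difference in the leading transcript. HEY1 fell on ENST00000354724, except in TET1-CD replicate 1, where 19.8% was placed on ENST00000337919. The genes that overlap NOTCH1, JAG1, JAG2 and HEY2 in the files had 0 to 2 counts per library.

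Around these 10 genes, the pathway was followed with 91 further genes found of lists written by role, of which 75 were tested. Of these, 6 were called higher and 10 lower in TET1-CD cells, which is 21.3% of those tested and close to the 19.7% of all genes. The calls include MFNG and HES7, each of which reached the filter only through the group where it was higher. With 10 counts required in every library, 14 of the pathway genes were called. The median log2 fold change of the 75 genes was -0.03. The pathway machinery as listed was thus called about as often as genes in general, and the members named here were the 12 with the smallest p whose libraries did not overlap between groups, those fixed by name, and a few chosen after their values were seen.

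In the nuclear complex, 2 of 9 genes passed and both were lower, a share of 22.2% beside 19.7% of all genes tested. RBPJ, the DNA-binding protein through which all canonical Notch signals pass, had 3238 and 3068 normalized counts with EV and 2367 and 2543 with TET1-CD. The log2 fold change was therefore -0.36 (standard error 0.06, edgeR, adjusted p = 0.00273), and without TET1-CD replicate 1 it was -0.31 (edgeR, adjusted p = 0.0576). MAML2, a Mastermind coactivator, fell from 646 and 623 to 393 and 375, a log2 fold change of -0.73 (standard error 0.08, edgeR, adjusted p = 3.44e-04). MAML1, the founding member of the same family, had a log2 fold change of 0.03 (95% interval -0.11 to 0.17), whose sign was negative without EV replicate 2 or TET1-CD replicate 2. RBPJ and MAML2 were lower in the same libraries in which HES1 and NRARP were higher, and a link between these differences was not tested.

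Among the 9 genes of receptor cleavage, 2 passed, both lower, again 22.2% beside 19.7% of all genes tested. ADAM17, a protease of the first cut, had 1569 and 1574 normalized counts with EV and 1233 and 1258 with TET1-CD, a log2 fold change of -0.34 (edgeR, adjusted p = 0.00331), and APH1B, a γ-secretase subunit, had one of -0.46 (edgeR, adjusted p = 0.0149). Both calls were lost without TET1-CD replicate 1 (-0.32 for ADAM17, edgeR, adjusted p = 0.0524, and -0.35 for APH1B, adjusted p = 0.171). ADAM10, the other protease of this step, had a log2 fold change of -0.08 and did not pass. Of 16 genes of trafficking and turnover, NEURL1B was higher and 3 were lower, DTX3L, NUMBL and DTX2. DTX3L, a ubiquitin ligase of the Deltex family that is best known for its partnership with PARP9 in interferon responses, had a log2 fold change of -0.34 (edgeR, adjusted p = 0.00212, and 0.0551 without TET1-CD replicate 2, at -0.31). NUMBL, a relative of the Notch inhibitor NUMB, had one of -0.45 (edgeR, adjusted p = 0.0129), which was lost without either TET1-CD library (-0.46 and -0.44, adjusted p = 0.0929 and 0.115) and with DESeq2 (adjusted p = 0.0781). NUMB itself had a log2 fold change of -0.05 and did not pass. Of 8 genes that add sugars to the receptors, 1 passed, a share of 12.5% beside 19.7% of all genes tested. The gene that passed was MFNG, a Fringe enzyme named after its value was seen. MFNG had 1 and 4 counts with EV and 15 and 12 with TET1-CD (edgeR, adjusted p = 0.0424). It reached the filter only through TET1-CD cells.

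Of 14 corepressors, TLE3, a Groucho-type partner of HES proteins, was the only one to pass, at a log2 fold change of 0.53 (standard error 0.10, edgeR, adjusted p = 0.00578). The share called among the corepressors was 7.14%, beside 19.7% of all genes tested. In the list of HES and HEY genes and their relatives beyond the genes above, 5 were tested. Of these 5, 2 passed, BHLHE41 and HES7, both lower, beside 19.7% of all genes tested, 9.61% as lower. A list of 5 genes is too short to be set against these shares. BHLHE40 and BHLHE41 were listed as relatives and are not HES or HEY genes themselves. HES7 was therefore the only HES or HEY gene of this list to pass. BHLHE41, a repressor of the circadian clock, fell from 355 and 409 normalized counts with EV to 187 and 194 with TET1-CD, a log2 fold change of -0.998 (standard error 0.11, edgeR, adjusted p = 2.99e-04). HES7, a repressor known from the segmentation clock, had 26 and 24 counts with EV and 8 and 5 with TET1-CD (log2 fold change -1.91, edgeR, adjusted p = 0.0169). Without TET1-CD replicate 2 its adjusted p from edgeR was 0.143 (log2 fold change -1.53), and DESeq2 gave 0.0781. HES7 reached the filter only through EV cells and was not tested with 10 counts required in every library. HES4 had a log2 fold change of -0.36 (95% interval -0.66 to -0.06, edgeR, adjusted p = 0.0906), and with 1 library left out it ranged from -0.49 without EV replicate 1 (edgeR, adjusted p = 0.0183) to -0.23 without EV replicate 2 (adjusted p = 0.276). HES6 had a log2 fold change of 0.30 (95% interval -0.09 to 0.69), which was 0.18 without TET1-CD replicate 1. HEYL was listed at 0 in EV and had 4 and 1 counts in TET1-CD cells.

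Of 11 other genes known as Notch targets in some tissues, 3 were higher and 1 lower. The share called was 36.4%, beside 19.7% of all genes tested. GATA3, a urothelial transcription factor, had 19 and 19 counts with EV and 46 and 44 with TET1-CD (log2 fold change 1.25, standard error 0.30, edgeR, adjusted p = 0.0163). Without TET1-CD replicate 1 its log2 fold change was 1.14 (adjusted p = 0.127), and without TET1-CD replicate 2 it was 1.36 (adjusted p = 0.0527, both edgeR), and DESeq2 gave an adjusted p of 0.0886. GATA2, a related factor, had a log2 fold change of 0.74 (edgeR, adjusted p = 0.00316), and ID3, an inhibitor of basic helix-loop-helix factors, had one of 0.62 (edgeR, adjusted p = 0.00171). MYC had a log2 fold change of -0.12 and SOX9 one of -0.02, and neither passed. The gene that was lower was CCND1, which encodes cyclin D1, with a log2 fold change of -0.22 (edgeR, adjusted p = 0.0275). With either TET1-CD library left out, 8 of these 75 pathway genes passed in place of 16, all of them among the 16.

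**Figure D5:**
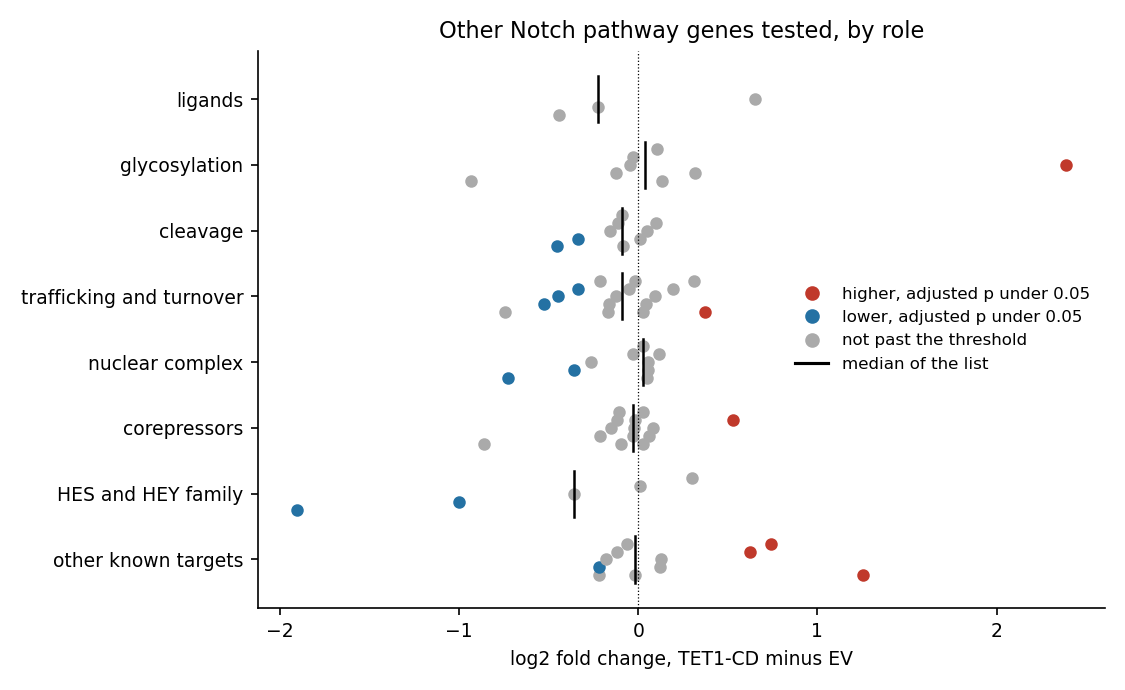
Log2 fold change of TET1-CD against EV (x axis) for the 75 further pathway genes tested, 1 point per gene in rows by role, colored by call at an adjusted p under 0.05 from edgeR, with a black bar at the median of each list. Most points lie near 0, and 6 genes are called higher and 10 lower.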

How the data were processed

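RNAseq was analysed for 4 libraries of T24 cells, 2 EV and 2 TET1-CD, grouped by their titles. For each transcript, the authors deposited an expected count, which is an estimated number of fragments that need not be whole, and an FPKM value, scaled by the authors to transcript length and library size. The submitters' processing notes list cutadapt 1.9.1, HISAT2 2.0.1, HTSeq 0.6.1, DESeq2 and hg19. The quantifier that gave fractional counts, the annotation release and the strand setting are not given in the sources used here, so antisense overlaps cannot be separated.

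Expected counts were summed per gene identifier and rounded. The main test was the quasi-likelihood test of edgeR 4.0.16 (glmQLFit, glmQLFTest, TMM factors of 0.993 to 1.005, filterByExpr, no block) in R 4.3.3, on all 14573 genes that passed the filter, with Benjamini-Hochberg adjustment over them. Standard errors were taken from the log2 fold change and its F value. The script was tested on simulated data. FPKM values were summed per gene for levels and not tested. Transcript types are from GENCODE release 44 on GRCh37. Between replicates, the mean chi-square over genes was 6.52 for EV and 2.80 for TET1-CD, so neither pair was 1 library deposited again. The 10 genes and the pathway lists were chosen with earlier results of these data known. The text names all 10, the 12 pathway genes with the smallest p among those that passed without overlap, and NOTCH4, DLL3, DLL4, RBPJ, MAML1, HES4, HES6 and HEYL, besides MFNG, NEURL1B, DTX2, CCND1, ADAM10, NUMB, MYC and SOX9, which were chosen after their values were seen. Of 92 pathway symbols, 91 were found. Alternatives were DESeq2 1.42.0, limma-voom (limma 3.58.1), RLE or no normalization factor, a filter of 10 counts per library or none, a replicate block, a fold change of 2, an FPKM ratio with a pseudocount of 0.1 and leaving out each library.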

Additional observations from a re-analysis of the deposited data

How the results depend on the processing

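With RLE factors, library size alone, limma-voom, a filter of 10 counts per library or none, or the replicate block, 5 of the Notch genes passed, the same genes as in the report. DESeq2 called 3 and a fold change of 2 left 1. With 1 library left out, between 1 and 4 were called, and the fewest were left without TET1-CD replicate 1, where the lone library of a group is assumed to vary like the other group. Of the 75 further pathway genes, 16 were called, 18 with the replicate block, 19 with no filter, 11 with DESeq2 (3 higher and 8 lower), 3 with a fold change of 2 and between 8 and 23 with 1 library left out. Under the filter of 10 counts per library, 14 of these pathway genes were called, 5 higher and 9 lower, and MFNG and HES7 were not tested. The block added HES4 (adjusted p = 0.0474 from edgeR, and 0.0454 with no filter) among the genes named. Deviations of same-numbered libraries had a correlation of 0.007 across all genes tested and 0.217 across those above the median CPM, and the labels state no pairing. The 3 genes below, which did not pass, changed sign with 1 library left out. JAG2 ranged from -0.017 to 0.72 on the log2 scale, HEY1 from -0.50 to 0.011 and MAML1 from -0.005 to 0.059. MAML1 was -0.004 without TET1-CD replicate 2. All other log2 fold changes for which alternatives were run kept their direction under the alternatives. Depth limits what can be said of NOTCH3, HEY2, DLL1 and JAG2, with 1 to 27 counts per library.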
